A study of Mus musculus with 6 samples.

Results

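The complement genes C1qa, C1qb, C1qc, C3, C4b, C3ar1, C5ar1 and Itgam were followed through the CD45+ cells of the midbrain of Line 61 mice, a model of Parkinson's disease, with and without injected a-Syn fibrils. They were chosen by gene symbol, are 8 of the 32285 genes in the tables, and all 8 were found. CD45 marks leukocytes, so that the sorted cells are microglia (MG), border-associated macrophages (BAM) and smaller numbers of other immune cells.

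Complement is a cascade of proteins that tags targets for removal. C1q, which is built from the chains encoded by C1qa, C1qb and C1qc, starts the classical pathway by binding to debris, antibody or synapses, and C4 and C3 are the proteins that are then cut and attached to the target. C3ar1 and C5ar1 are the receptors of the small fragments C3a and C5a, and Itgam (CD11b) is the alpha chain of complement receptor 3, by which phagocytes take up targets coated with C3 fragments. In the brain, microglia are the known main source of C1q, and complement has been tied to the removal of synapses by microglia.

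All mice were male Line 61 mice, in which the neuronal Thy1 promoter drives human wild-type a-Syn, and all were injected in the striatum at 12 to 15 weeks of age. The 4 groups received PBS, monomer (soluble human a-Syn), PFF (sonicated human a-Syn fibrils) with vehicle (PFF + VH), or PFF with the JAK1/2 inhibitor AZD1480 at 25 mg/kg from week 2 (PFF + AZD1480). Cells were collected 6 weeks after injection from 3 to 5 pooled ventral midbrains per sample, and each group gave 1 library of the 10x 3′ kit. Antibody tags (hashtags) were counted in both PFF libraries, 4 with VH and 5 with AZD1480, as many as the samples given for these groups. The labels do not tie a hashtag to a sample, and taking each hashtag as 1 replicate is an assumption on which every test rests. For PBS and monomer, with 3 samples given for each, the deposited library was analysed here as 1 value and enters no test. A library and its treatment cannot be told apart, and the p-values measure the spread between hashtags of a library.

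The PFF + VH library stands apart in depth. The median cell had 2306 UMIs (counted molecules) in PFF + VH, against 6616 to 7028 in the other libraries, and 37.3% of its cells carried no hashtag, against 6.41% in PFF + AZD1480. Its untagged cells were shallower than its tagged cells, with a median of 1346 against 2916 UMIs. Between 51 and 163 cell barcodes were shared by pairs of libraries. Classes were set by UMIs of marker genes that include none of the complement genes. The median MG had 15 to 54 UMIs of the MG markers and 0 of the BAM markers, and the median BAM had 17 to 40 of the BAM markers and 3 to 5 of the MG markers. There were 11720 to 30657 MG and 198 to 327 BAM per library, and 4.44% to 8.89% of the cells stayed unnamed.

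C1qa, C1qb and C1qc lie side by side on the minus strand of mouse chromosome 4 and span 18675 bp (GRCm38), with C1qc at chr4:136889804-136893065 between C1qb at chr4:136880129-136886187 and C1qa at chr4:136895917-136898803. C3 (chr17:57203970-57228136) and C4b (chr17:34728380-34743882) are on chromosome 17, C5ar1 (chr7:16246743-16259540) and Itgam (chr7:128062640-128118491) on chromosome 7 and C3ar1 (chr6:122847138-122856161) on chromosome 6. The stretches before the annotated genes are shown for 2 C1q chains, which are built into 1 protein, and for C3 and Itgam, which moved furthest apart in MG with a disease-associated panel. They are RefSeq sequences on GRCm38.p6, read 5′ to 3′ on the strand of the gene. RefSeq promoters of 6 of the 8 genes were found, and those of C1qa and C4b were not. Capitals mark GAGGAA on either strand, the core of the motif of PU.1, a transcription factor of myeloid cells.
C1qb, chr4:136886201-136886450, minus strand: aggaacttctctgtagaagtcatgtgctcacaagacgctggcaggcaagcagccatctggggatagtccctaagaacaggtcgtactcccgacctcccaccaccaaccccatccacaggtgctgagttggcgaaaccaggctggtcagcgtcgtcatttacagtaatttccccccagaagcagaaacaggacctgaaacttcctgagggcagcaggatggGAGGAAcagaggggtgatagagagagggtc
C1qc, chr4:136893066-136893164, minus strand: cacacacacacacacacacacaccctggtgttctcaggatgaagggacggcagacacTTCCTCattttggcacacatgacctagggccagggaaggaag
C3, chr17:57228137-57228386, minus strand: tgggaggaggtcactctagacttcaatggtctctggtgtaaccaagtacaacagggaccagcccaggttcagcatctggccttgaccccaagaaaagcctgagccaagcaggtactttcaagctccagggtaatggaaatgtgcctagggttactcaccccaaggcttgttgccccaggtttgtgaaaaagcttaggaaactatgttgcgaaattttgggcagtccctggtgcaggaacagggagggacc
Itgam, chr7:128062390-128062639, plus strand: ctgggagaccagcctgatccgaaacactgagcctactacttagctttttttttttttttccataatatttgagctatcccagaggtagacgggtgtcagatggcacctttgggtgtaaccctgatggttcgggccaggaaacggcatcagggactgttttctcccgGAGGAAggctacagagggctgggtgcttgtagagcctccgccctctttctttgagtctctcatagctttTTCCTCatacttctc
The letters occur once before C1qb, once before C1qc and at 2 places before Itgam, and 23.25% of all 32851 RefSeq promoters hold them. No match was found in the windows of C3, C3ar1 and C5ar1. The window of C5ar1 outside the gene has only 48 bases and that of C1qc 99, against 246 to 250 in the other 4, so that the shares of all promoters do not apply to them. TTCNNNGAA, the letters to which STAT factors bind, was in none of the 6 windows and is in 7.02% of all promoters. C1qa and C4b were not searched. A match describes the letters only.

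Levels are given as CPM, the UMIs of a gene scaled to an equal total of UMIs over the summed cells of a class. UMIs of a 3′ kit count molecules whatever the length of the gene. C1q was the most abundant of these transcripts and was highest in MG and BAM. Its 3 chains together reached 15060 to 17550 CPM in MG and 13840 to 15760 CPM in BAM over the 4 libraries. In MG, C1qa was at 6299 to 7399 CPM, C1qb at 5239 to 6284 CPM and C1qc at 3430 to 3869 CPM. After each cell was thinned to 1000 UMIs, 97.0% to 98.9% of MG and 96.4% to 99.3% of BAM still held a C1qa UMI. Since MG were the bulk of the cells, they carried 96.5% to 98.1% of all C1qa UMIs of a library, whereas BAM carried 0.803% to 1.58%.

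The proportions of the chains varied little among MG. C1qa gave 41.8% to 43.2% of the C1q UMIs in MG, C1qb 34.3% to 35.8% and C1qc 22.0% to 23.0%. The BAM had a slightly larger share of C1qc, 24.4% to 24.8%, and less C1qb, 31.6% to 33.8%. These ranges of BAM and MG did not overlap in the 4 libraries. In T cells C1qb gave 37.0% to 41.95% of the C1q UMIs, above its share in MG in all 4 libraries, and in 3 of them more than C1qa, which gave 35.1% to 42.4%. These T cells held only 615 to 1758 C1q UMIs per library. A single T cell held 50 of 335 C1qb UMIs for PBS and 61 of 258 for monomer. For PFF + VH it was 129 of 650, and for PFF + AZD1480 68 of 665. The source of these UMIs was not tested here. Over T cells, NK cells, B cells and neutrophils (Neu) the share of C1qa ran from 35.1% to 45.2% and that of C1qb from 32.2% to 41.95%.

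C3, the central component, was found in other cells. Neu held 92.7 to 295 CPM of C3 in the 3 libraries with at least 20 Neu, and monocytes held 85.6 CPM (95% Poisson interval 39.2 to 163) in the 11 cells of PFF + AZD1480 up to 208 CPM (151 to 278) in the 26 cells of PBS. In MG, C3 was at 3.86 CPM in PFF + VH, 2.87 in PFF + AZD1480, 1.14 in PBS and 1.95 in monomer. Only 0.533% to 1.49% of MG had a C3 UMI, and yet 50.9% to 81.0% of the C3 UMIs of a library came from MG because of their number. The 405 T cells held 0 UMIs of C3, which allows up to 1.37 CPM over the libraries. Intervals and limits cover counting error only.

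C4b had its highest level in BAM. Among BAM it reached 215 CPM (191 to 240) for PBS, 131 (110 to 154) for monomer, 198 (171 to 227) for PFF + VH and 121 (104 to 141) for PFF + AZD1480, while MG stayed between 1.80 and 6.12 CPM. T cells, NK cells, B cells and monocytes held 0 UMIs of C4b, and Neu held 2. The BAM gave 22.5% to 62.3% of the C4b UMIs of a library. The far more numerous MG gave 34.9% to 71.1%, and more than BAM for monomer (59.3%) and PFF + VH (71.1%). Reads of C4b and its near copy C4a can be hard to tell apart, and C4a was listed at 0.0520 to 0.0850 CPM in MG. What this does to the level of C4b was not tested.

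The receptors were spread more widely. C3ar1 was at 301 to 413 CPM in MG and 449 to 596 CPM in BAM. C5ar1 was at 155 to 239 CPM in MG, 396 to 571 CPM in BAM and, in the 3 libraries with at least 20 Neu, 396 to 648 CPM in Neu, the cells best known for their response to C5a. Itgam had the opposite order among the macrophages, with 615 to 746 CPM in MG and 140 to 234 CPM in BAM, and Neu held 583 to 844 CPM in the same 3 libraries and 523 CPM in the 19 Neu of monomer. In the lymphocytes all 3 receptors were lower than in MG, and their levels in T cells did not exceed 124 CPM. B cells of PFF + VH held 185 CPM of C3ar1, 128 of C5ar1 and 157 of Itgam, and NK cells of PFF + VH 146 of Itgam. These Itgam values lie within the range of BAM. Itgam stood at 25.45% of its MG level in these B cells and 23.76% in these NK cells. The microglial panel, described below with the T cells, stood at 25.82% and 24.33% of its MG level. C3ar1 and C5ar1 were above the panel in the B cells, at 51.86% and 53.67%, and below it in the NK cells, at 15.51% and 18.21%. The source of these UMIs was not tested.

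**Figure D1:**
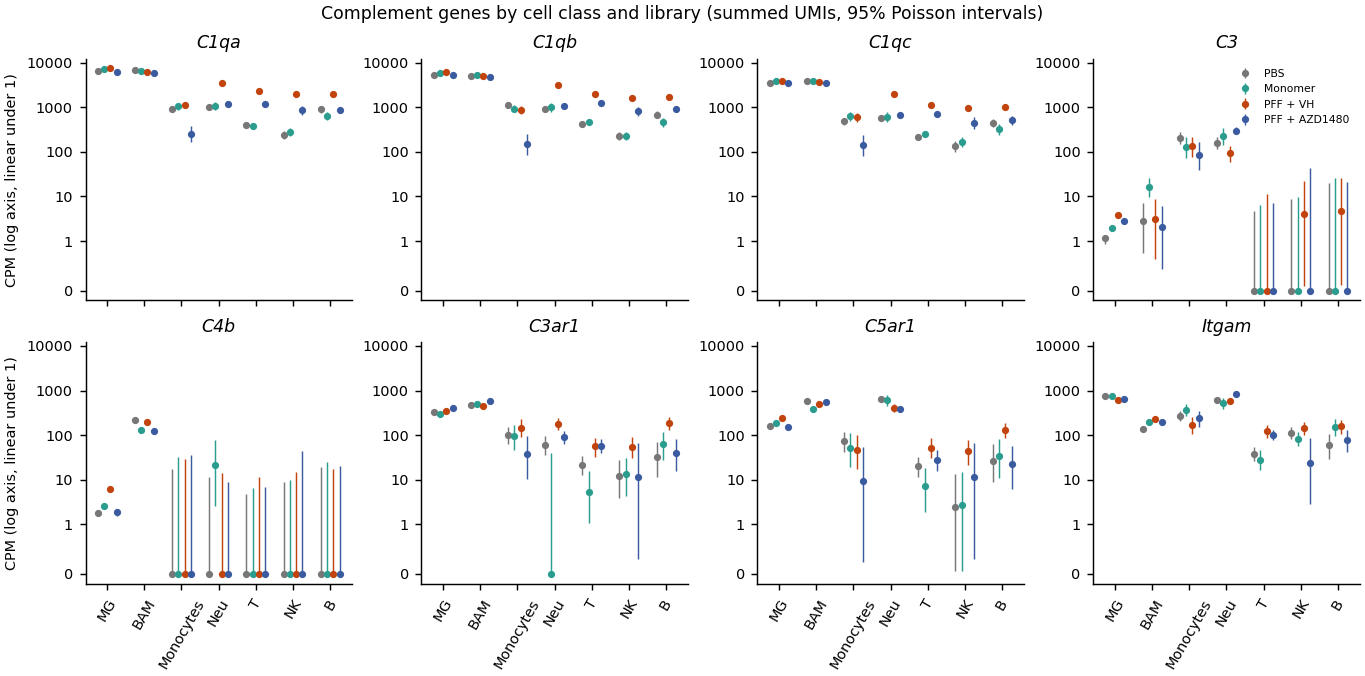
Each panel plots 1 complement gene as CPM of the summed UMIs of a class (log axis, linear under 1), with 1 point per library and its 95% Poisson interval; classes with fewer than 10 cells are left out. C1q is high in MG and BAM, C4b in BAM at 121 to 215 CPM, and C3 in Neu and monocytes, and the C1q points of T, NK, B and Neu are highest in PFF + VH.

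BAM and MG were then compared within the 9 hashtags, so that both classes carry the same tags. The test was the quasi-likelihood test of edgeR with Benjamini-Hochberg adjustment over all genes, and 29.6% of the 13017 genes tested were called. Of the 8 complement genes, C4b, C5ar1 and C3ar1 were called higher in BAM and Itgam, C1qa and C1qb lower. C4b in BAM was at 233, 164, 249 and 199 CPM in PFF + VH hashtags 1 to 4 and at 127, 59.5, 25.7, 146 and 110 CPM in PFF + AZD1480 hashtags 1 to 5. Every one lay above the highest MG value, 8.33 CPM, and the fold was 45.5 (log2 difference 5.51 ± 0.24 SE, edgeR adjusted p = 2.28e-48). C5ar1 was higher in BAM in 9 of 9 hashtags by 1.40 ± 0.13 on the log2 scale (edgeR adjusted p = 1.80e-19). Itgam was lower in 9 of 9 by a log2 difference of -1.88 ± 0.13 (edgeR adjusted p = 2.95e-27), the opposite direction to C5ar1.

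The differences of C1q between the classes were small. C1qa differed by -0.36 ± 0.10 (log2, BAM against MG, edgeR adjusted p = 0.00241) and was lower in BAM in 9 of 9 hashtags. C1qb differed by -0.41 ± 0.10 (edgeR adjusted p = 0.000585) and was lower in 8 of 9, whereas C1qc differed by -0.18 ± 0.10 and was not called (edgeR adjusted p = 0.202). The median of all genes was -0.13 in this comparison and moved up by 0.12 with RLE scaling, under which C1qa lost its call (log2 difference -0.23, edgeR adjusted p = 0.0550). With that scaling 1856 genes were higher and 1839 lower, against 1499 and 2356. C1qa and C1qb also lost their calls in the PFF + AZD1480 hashtags alone (edgeR adjusted p = 0.0841 and 0.0622). C3ar1 was higher in 8 of 9 hashtags by 0.33 ± 0.12 (edgeR adjusted p = 0.0246). It lost its call in 3 of 6 alternatives, PFF + VH alone (0.21, edgeR adjusted p = 0.396), MULTIseqDemux (0.34, 0.0678) and no filter on low counts (0.31, 0.0576). C3 was not called, and the test had almost no C3 counts from BAM. All BAM of PFF + VH held 3 UMIs of it and those of PFF + AZD1480 3, cells without a hashtag included. BAM of PBS and monomer, which enter no test, held 4 and 18.

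C5ar1 was the complement gene whose difference between BAM and MG itself differed between the treatments. In BAM it was at 510 ± 123 CPM (SD, n = 4) in PFF + VH and 559 ± 258 (n = 5) in PFF + AZD1480, while MG had 237 ± 39.2 and 164 ± 67.4 CPM. The difference was larger in PFF + AZD1480 by 0.78 ± 0.21 on the log2 scale (edgeR adjusted p = 0.0326), in a test in which 0.807% of genes were called. The other 7 genes were not called in it. C4b had the largest of their values, 1.05 ± 0.41 (edgeR adjusted p = 0.325).

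MG are not uniform, and the complement genes differed between ranges of MG. MG with a disease-associated panel were those with at least 2 of the genes Spp1, Lpl, Cst7, Gpnmb, Igf1 and Axl after thinning to 2000 UMIs, and none of the 8 complement genes is in a panel. Among MG of at least this depth they made up 9.66% for PFF + VH, 7.31% for PFF + AZD1480, 1.82% for PBS and 1.12% for monomer. The panel cuts a range and not a type, since 925 to 4297 MG per library were 1 gene short of it. Within hashtags, 38.9% of the 12700 genes tested were called, and 7 of the 8 complement genes.

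C3 changed most with the panel. In MG without it, C3 was at 1.298 to 3.62 CPM in the 9 hashtags, with a median of 2.73, and in MG with it at 7.33 to 21.2 CPM, with a median of 11.7. The lowest value with the panel was above the highest without it, and C3 rose in 9 of 9 hashtags, by 2.31 ± 0.21 on the log2 scale or 4.97-fold (edgeR adjusted p = 1.37e-11). The libraries without hashtags had the same order: 5.73 CPM (2.86 to 10.2) against 1.05 (0.856 to 1.29) in PBS, and 8.48 (4.07 to 15.6) against 1.87 (1.60 to 2.17) in monomer. These MG had few C3 UMIs in all, 11 in PBS and 10 in monomer. MG with the panel held C3 at 10.9 CPM for PFF + VH and 11.2 CPM for PFF + AZD1480.

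The C1q chains rose with the same panel, but little. C1qa rose in 9 of 9 hashtags by 0.30 ± 0.06 (log2, edgeR adjusted p = 6.50e-05), C1qb in 8 of 9 by 0.33 ± 0.06 (2.18e-05) and C1qc in 9 of 9 by 0.29 ± 0.05 (3.51e-05), adjusted by edgeR over all genes. The rise of C1qa was larger in PFF + AZD1480 than in PFF + VH by 0.27 ± 0.07 (edgeR adjusted p = 0.0272), and that of C1qb by 0.28 ± 0.07 (edgeR adjusted p = 0.0307), in a test that called 1.99% of genes. Over tagged and untagged MG, C1qa with the panel was at 7748 CPM for PFF + VH and 7651 for PFF + AZD1480. Without the panel it was at 7481 and 6237 CPM. C1qb was at 6780 and 6556 CPM with the panel and at 6318 and 5273 without it. C3ar1 rose in 9 of 9 hashtags by 0.37 ± 0.05 (edgeR adjusted p = 3.15e-07). C5ar1 rose in 7 of 9 by 0.25 ± 0.07 (edgeR adjusted p = 0.00520), which was not called in PFF + AZD1480 alone (0.10, edgeR adjusted p = 0.470) or when 1 more panel gene was needed (0.08, edgeR adjusted p = 0.655).

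Itgam went the other way. It was at 605 to 692 CPM in MG without the panel and 325 to 432 CPM in MG with it, and these ranges did not overlap. The fall was seen in 9 of 9 hashtags, with a log2 difference of -0.68 ± 0.06 (edgeR adjusted p = 2.21e-12). Itgb2, the beta chain with which CD11b pairs, rose by 0.40 ± 0.05 (edgeR adjusted p = 1.12e-07), and Itgax (CD11c), another alpha chain that pairs with it, rose by 2.78 ± 0.11 (edgeR adjusted p = 6.62e-21). C4b did not follow C3, with a log2 difference of 0.04 ± 0.34 (edgeR adjusted p = 0.947).

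**Figure D2:**
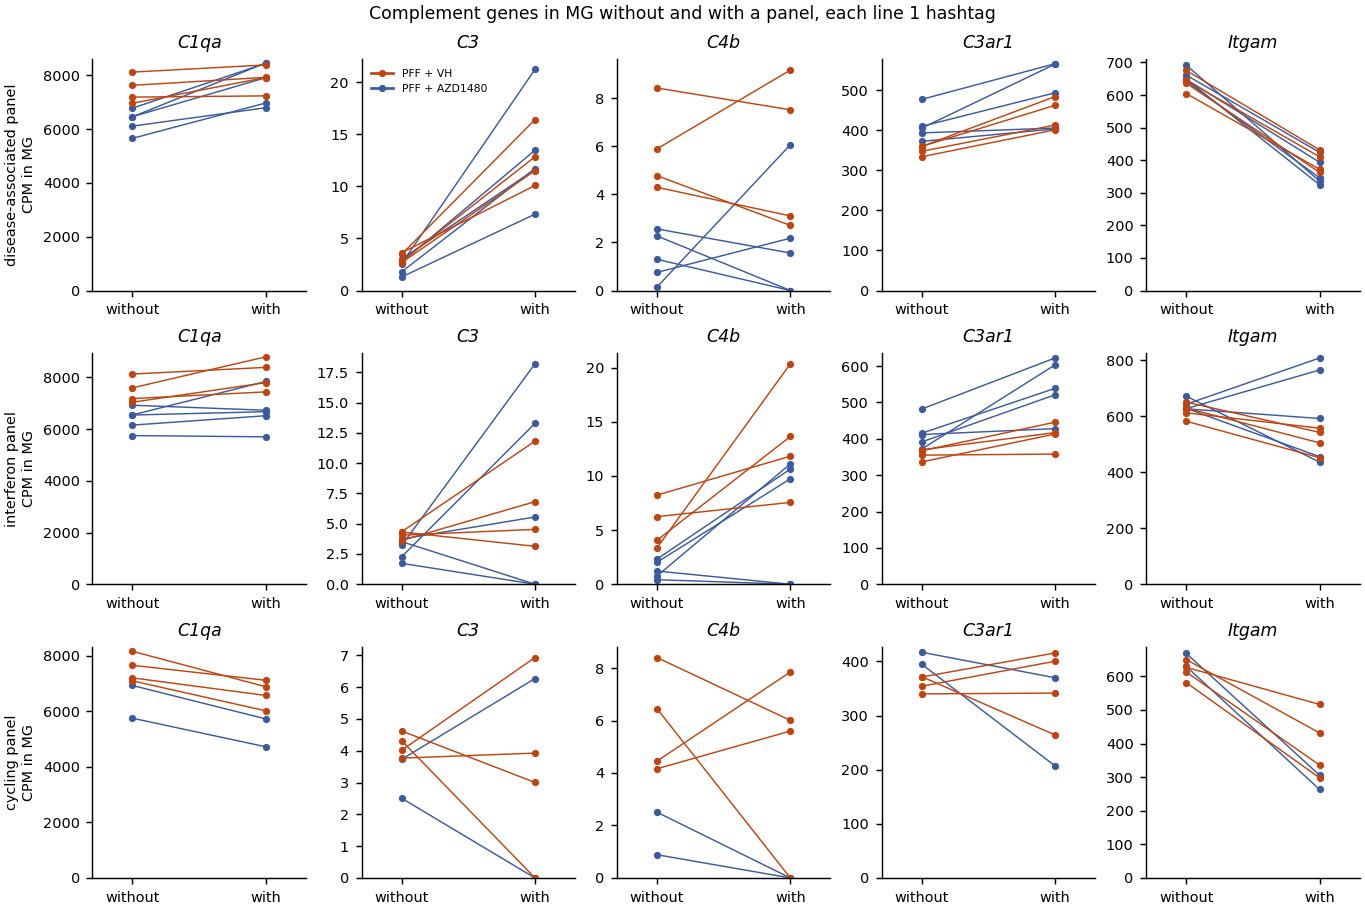
CPM of 5 complement genes in MG without and with the disease-associated, interferon and cycling panels; each line joins the 2 values of 1 hashtag, and axes are linear from 0. C3 rises and Itgam falls with the disease-associated panel in 9 of 9 hashtags, C4b rises with the interferon panel in 7 of 9, and Itgam falls with the cycling panel in 6 of 6.

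The interferon panel (at least 2 of Ifit1, Ifit2, Ifit3, Isg15, Rsad2, Oasl1, Oasl2, Usp18, Irf7 and Cxcl10, genes induced by interferon) was found in 4.37% of such MG for PFF + VH, against 1.20% for PFF + AZD1480, 1.26% for PBS and 1.34% for monomer. Here 10.1% of the 12875 genes tested were called, and C4b, C3ar1 and Itgam among the complement genes. C4b was at 0 to 20.4 CPM in MG with the panel, with a median of 10.6, and at 0.418 to 8.23 CPM without it, with a median of 2.32, so that the ranges overlapped. It rose in 7 of 9 hashtags by 1.55 ± 0.36 on the log2 scale, or 2.92-fold (edgeR adjusted p = 0.000919). The counts were few, since 10 to 147 MG per hashtag had the panel. Tagged or not, they held 43 C4b UMIs in PFF + VH and 11 in PFF + AZD1480. In the libraries without hashtags, C4b was at 4.85 CPM (1.78 to 10.6) with the panel and 1.76 (1.503 to 2.05) without it in PBS, and at 13.1 (7.62 to 21.0) against 2.47 (2.15 to 2.81) in monomer.

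The call of C4b was lost in 3 of 7 alternatives, PFF + AZD1480 hashtags alone (2.30, edgeR adjusted p = 0.108), hashtags called by MULTIseqDemux (1.27, 0.0652) and 1 more panel gene (1.53, 0.0564). C3ar1 rose in 9 of 9 hashtags by 0.25 ± 0.08 (edgeR adjusted p = 0.0217) and lost its call in 4 of 7 alternatives. Itgam fell in 7 of 9 by 0.25 on the log2 scale (edgeR adjusted p = 0.0198) and lost it in 3 of 7. The C1q chains, C3 and C5ar1 were not called. C1qa passed the threshold in PFF + VH alone (0.13, edgeR adjusted p = 0.0271) and C1qb under RLE scaling (0.18, edgeR adjusted p = 0.0209), each in 1 of 7 alternatives. C3 had a log2 difference of 0.97 ± 0.40 (edgeR adjusted p = 0.118). The difference between the treatments was not called for any of the 8 genes here, where 0.14% of genes were called.

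In MG with the cycling panel (at least 2 of Mki67, Top2a, Birc5, Cdk1, Pclaf, Ccnb2 and Nusap1, genes of dividing cells), 26.2% of the 13170 genes were called over the 6 hashtags with enough cells. Itgam was at 263 to 517 CPM with the panel and 582 to 669 CPM without it. It was lower in 6 of 6 hashtags, by a log2 difference of -0.997 ± 0.118 (edgeR adjusted p = 1.63e-13). C1qa was lower in 6 of 6 by a log2 difference of -0.41 ± 0.09 (edgeR adjusted p = 7.75e-05). C1qb (-0.32), C1qc (-0.34) and C3ar1 (-0.35) were also called, but lost their calls under RLE scaling, which moved the median of all genes by 0.11. C1qb was lower in 5 of 6 hashtags and C1qc in 4 of 6, while C3ar1 was higher in 3 and lower in 3. In the MG sums of PFF + VH, C3ar1 was at 360 CPM with the panel and 359 CPM without it. C1qc and C3ar1 also lost them with MULTIseqDemux (edgeR adjusted p = 0.0611 and 0.122), and C3ar1 in PFF + VH alone (edgeR adjusted p = 0.319). In PFF + AZD1480 alone, with 2 such hashtags, C1qa, C1qb and C1qc were not called (edgeR adjusted p = 0.132 for C1qa). C3, C4b and C5ar1 were not called.

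The next question was whether AZD1480, which blocks the kinases through which interferons and several cytokines signal, went with other complement levels in MG. Over the hashtags of MG, 26.8% of 13601 genes were called between PFF + AZD1480 and PFF + VH, 1665 higher and 1986 lower. Of the 8 complement genes, C4b, C3, C1qa and C1qb were called, all lower with AZD1480.

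C4b was at 4.64, 4.43, 6.27 and 8.33 CPM in the 4 PFF + VH hashtags and at 1.20, 0.930, 2.09, 2.52 and 0.402 CPM in the 5 PFF + AZD1480 hashtags. All AZD1480 hashtags lay below all VH hashtags. The means were 5.92 ± 1.80 CPM (SD, n = 4) and 1.43 ± 0.864 (n = 5), and the log2 difference was -2.03 ± 0.33 (edgeR adjusted p = 0.000937). It kept its direction and its call in all 18 alternatives (-2.39 to -1.83), and it was -2.02 in MG without the interferon panel. Over tagged and untagged MG, 3105 of PFF + VH and 1034 of PFF + AZD1480 were 1 gene short of that panel and count as without it. MG too shallow for the panel were left out, 11893 of 30657 in PFF + VH and 951 of 11720 in PFF + AZD1480. The libraries without PFF had C4b at 1.80 CPM in PBS and 2.60 in monomer.

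These C4b values rest on few cells. Of the MG, 1.65% had a C4b UMI in PFF + VH and 0.836% to 1.12% in the other libraries, and 11 to 22 MG per library with 3 or more UMIs held 13.8% to 36.7% of them. The markers of BAM, in which C4b is high, were summed in the same MG and were at 38.6 to 55.6 CPM in the PFF + VH hashtags and 21.2 to 42.01 in the PFF + AZD1480 hashtags. C4b in MG stood at 0.837% to 3.096% of its BAM level, and the BAM markers together at 0.220% to 0.668% of theirs, though MG were chosen for low BAM markers. Of the 10 BAM markers, Folr2 alone stood above C4b in each library, at 2.52% to 5.53% of its BAM level. The part of BAM RNA in the difference was not tested further.

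C1qa in MG was at 7070, 7658, 7152 and 8154 CPM in PFF + VH and at 6141, 6912, 6535, 5730 and 6490 CPM in PFF + AZD1480. The groups did not overlap. The log2 difference was -0.29 ± 0.07 (edgeR adjusted p = 0.0107), or 0.818-fold, and was called in all 18 alternatives. In the libraries that enter no test, C1qa in MG was at 6588 CPM in PBS and 7089 in monomer. Summed over all MG, it was at 7399 CPM in PFF + VH and at 6299 in PFF + AZD1480, which lay below both. C1qb was at 6474 ± 493 CPM (SD, n = 4) and 5367 ± 740 (n = 5), with overlap, and differed by -0.32 ± 0.10 (edgeR adjusted p = 0.0314). Its call was lost in 5 of the 9 fits that left out 1 hashtag, those of PFF + AZD1480 hashtags 1, 2 and 5 and PFF + VH hashtags 1 and 3 (edgeR adjusted p up to 0.0981). C1qc differed by -0.26 ± 0.09 and was not called (edgeR adjusted p = 0.0510). It was called in 6 of 18 alternatives, DESeq2, no filter on low counts, MULTIseqDemux, stricter purity, cells with at least 1000 counts and without PFF + AZD1480 hashtag 3 (adjusted p = 0.00982 to 0.0488). In the PFF + VH library, MG without a hashtag, which enter no test, had 6524 CPM of C1qa against 7558 in those with 1. The same cells had 4.13 CPM of C4b against 6.11. In PFF + AZD1480 the gap was larger for C1qa, with 2463 CPM in the 558 MG without a hashtag against 6309, and C4b was at 0.919 against 1.53 CPM.

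C3 in MG was at 3.70, 4.36, 4.46 and 4.43 CPM in PFF + VH and 1.70, 3.72, 3.45, 2.46 and 3.35 CPM in PFF + AZD1480. The highest AZD1480 hashtag was just above the lowest VH hashtag. The log2 difference was -0.61 ± 0.20 (edgeR adjusted p = 0.0406), but the call was lost in 8 of 18 alternatives, among them the removal of PFF + AZD1480 hashtag 1, 4 or 5 or of PFF + VH hashtag 2, 3 or 4 (edgeR adjusted p up to 0.0970) and hashtags called by MULTIseqDemux (edgeR adjusted p = 0.174). In MG without the interferon panel C3 differed by -0.59 (edgeR adjusted p = 0.0623). In the libraries that enter no test, C3 in MG was at 1.14 CPM (0.940 to 1.38) in PBS and 1.95 (1.68 to 2.26) in monomer.

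The receptors were not called in MG. C5ar1 was at 237 ± 39.2 CPM (SD, n = 4) in PFF + VH and 164 ± 67.4 (n = 5) in PFF + AZD1480, with a log2 difference of -0.59 ± 0.25 (edgeR adjusted p = 0.100), which passed the threshold without PFF + AZD1480 hashtag 1 (-0.85, edgeR adjusted p = 0.0113) and with MULTIseqDemux (-0.69, edgeR adjusted p = 0.0443). C3ar1 was at 359 ± 15.2 and 414 ± 41.2 CPM, and here the lowest AZD1480 hashtag, at 372.0 CPM, was just above the highest VH hashtag, at 371.4. Its log2 difference was 0.15 ± 0.07 (edgeR adjusted p = 0.122). Itgam was at 614 ± 29.1 and 638 ± 17.7 CPM, with a log2 difference of 0.00 ± 0.04 (edgeR adjusted p = 0.969).

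**Figure D3:**
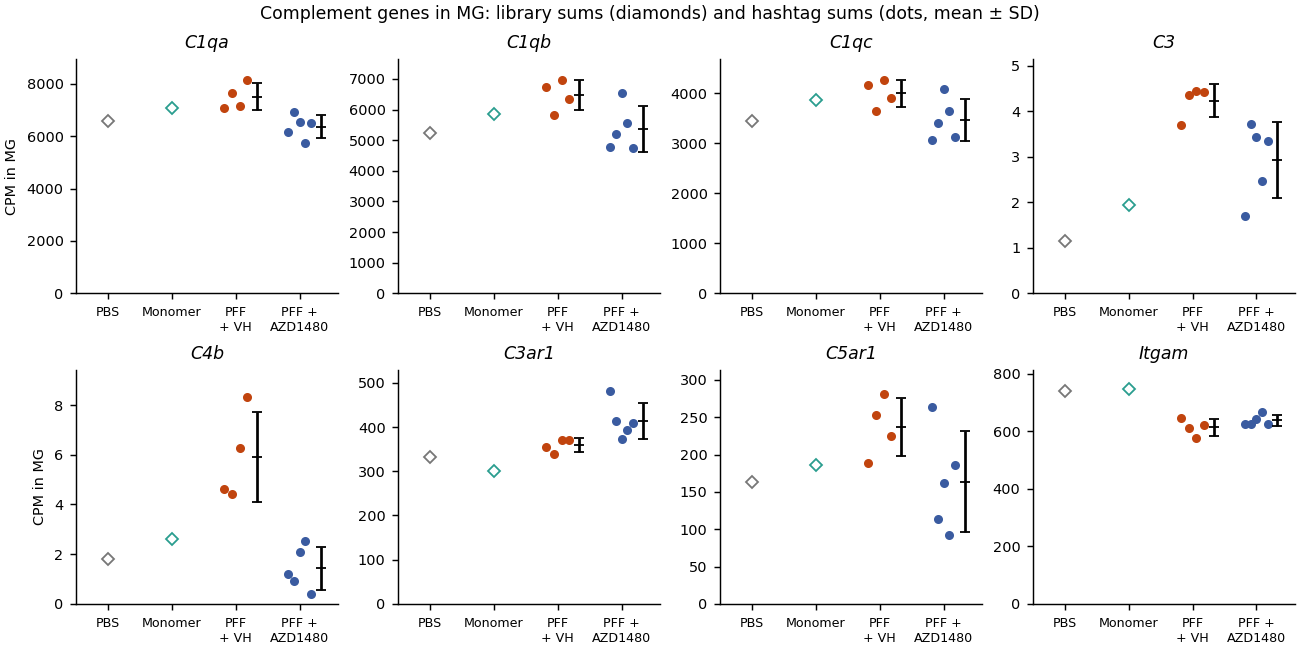
CPM of the 8 complement genes in MG: open diamonds are the PBS and monomer libraries, dots are the 4 VH and 5 AZD1480 hashtags of the PFF mice, and bars are mean ± SD over hashtags; axes are linear from 0. The C4b and C1qa dots of AZD1480 lie below those of VH, at 0.402 to 2.52 against 4.43 to 8.33 CPM for C4b, and the Itgam dots overlap.

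BAM were compared between the treatments with 11 to 81 cells per hashtag. Here 1.18% of the 2960 genes tested were called, and of the 8 complement genes 7 were tested and 0 called by edgeR, and 0 of these by DESeq2. Among these 7, C4b and C3ar1 had the lowest unadjusted p by edgeR (0.00249 and 0.02995). C4b in BAM was at 211 ± 37.8 CPM (SD, n = 4) in PFF + VH and 93.7 ± 49.9 (n = 5) in PFF + AZD1480. The AZD1480 hashtags all lay below the VH hashtags, with 25.7 to 146 against 164 to 249 CPM, and the log2 difference was -0.98 ± 0.28 (edgeR unadjusted p = 0.00249, adjusted p = 0.110). The counts were few, and the lowest value, in PFF + AZD1480 hashtag 3, rests on 11 BAM. Tagged or not, all BAM held 195 C4b UMIs in PFF + VH and 174 in PFF + AZD1480. C3ar1 differed by 0.46 ± 0.20 (edgeR adjusted p = 0.358). The C1q chains had log2 differences of -0.12 to -0.07, each within its SE.

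The study followed C1q transcripts in T cells, so that the C1q UMIs of lymphocytes were set beside those of other genes expressed by MG. The panel for this was 7 genes of microglia and macrophages that set no class here, among them Csf1r, Trem2, Fcrls, Sparc, Lgmn and Cst3. If C1q and the panel had a common source in MG, both would stand at the same percentage of their MG level, and so would each single gene. T cells held C1q at 31.0% of its MG level for PFF + VH, 20.9% for PFF + AZD1480, 6.86% for PBS and 6.51% for monomer. In the PFF libraries these sums take in T cells with no hashtag or with several, which enter no test. The panel stood at 30.4%, 20.7%, 6.52% and 6.21% in the same T cells. The ratio of the 2 percentages was 1.01 to 1.05 in T cells and 0.766 to 1.11 over T cells, NK cells, B cells and Neu of all libraries. In Neu of PFF + VH, C1q reached 49.0% of its MG level and the panel 48.1%. These sums rest mainly on Cst3, which gave 74.7% to 76.3% of the panel's sum in MG. The other 6 genes together stood at 26.8% of their MG level in T cells of PFF + VH, 15.9% in PFF + AZD1480, 6.27% in PBS and 5.54% in monomer, below C1q in all 4 libraries. Against them the ratio was 1.09 to 1.32 in T cells and 0.745 to 1.65 over the same classes. The panel without Cst3 was chosen after seeing the data.

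The single genes were less even than the sums. In T cells of PFF + VH the panel genes ran from 20.9% to 31.5% of their MG level and the C1q chains from 29.0% to 32.1%, and in those of PFF + AZD1480 from 14.4% to 22.3% and from 19.1% to 23.6%. The source of C1q in T cells was not tested further. In CPM, C1q in T cells was 5447 for PFF + VH and 3152 for PFF + AZD1480, against 1047 for PBS and 1093 for monomer. Cells with no hashtag or with several are included here and in the values per T cell. Counted per T cell, C1q gave 18.3 UMIs in PFF + VH and 20.3 in PFF + AZD1480, where the median T cell had 2962 and 6172 UMIs of all genes. It gave 6.03 UMIs per T cell in PBS and 6.76 in monomer. The T cells held 1 to 3 UMIs of MG markers in the median, against 15 to 54 in MG, and 36 of the 96 T cells of PFF + VH were near the limit of marker purity, against 11 of 82 in PFF + AZD1480. In T cells with a single hashtag, C1q stood at 13.7% to 23.8% of its MG level over the PFF + VH hashtags. All of these lay below the 31.0% of the summed T cells. Over the PFF + AZD1480 hashtags it stood at 6.79% to 28.15%, the highest from 3 T cells.

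The comparison of T cells by edgeR had 3 hashtags per group with at least 10 T cells, and 2.39% of 1046 genes were called. C1qa was at 1720, 1736 and 1574 CPM in PFF + VH hashtags 2 to 4 and at 637, 837 and 424 CPM in PFF + AZD1480 hashtags 1, 2 and 4, without overlap. It differed by -1.47 ± 0.23 on the log2 scale (edgeR adjusted p = 0.00247). C1qb differed by -1.11 ± 0.26 (edgeR adjusted p = 0.0229), and C1qc by -1.37 ± 0.37 (edgeR adjusted p = 0.0553). C1qc was called in 6 of 13 alternatives, RLE scaling, DESeq2, no filter on low counts, the replicate block and without PFF + AZD1480 hashtag 1 or 2 (adjusted p = 0.00353 to 0.0470). Sparc (-1.89) and Cst3 (-1.17) of the microglial panel were called in the same direction in the same T cells (edgeR adjusted p = 0.00783 and 0.00301). With hashtags called by MULTIseqDemux, C1qa (adjusted p = 0.0719) and C1qb (0.110) lost their calls. The call of C1qb was also lost without PFF + AZD1480 hashtag 4 or PFF + VH hashtag 3 or 4. The other 5 complement genes had too few counts to be tested in T cells.

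Over all hashtags with a T cell, C1q in T cells was at 2464, 3545, 4370 and 3148 CPM in PFF + VH and at 1891, 1804, 3482, 1012 and 4042 CPM in PFF + AZD1480. Of the AZD1480 values 3 lie below all VH values and 2 within their range, and those 2 (hashtags 3 and 5) rest on 1 and 3 T cells. The means were 3382 ± 796 (SD, n = 4) and 2446 ± 1265 (n = 5), with a two-sided exact permutation p = 0.230, where the smallest possible p is 0.00794. The ratio of C1q to the panel was 0.994 ± 0.156 (SD, n = 4) and 1.077 ± 0.293 (n = 5), with an exact permutation p = 0.690. With the panel without Cst3 the ratios were 1.05 ± 0.145 (SD, n = 4) and 1.33 ± 0.293 (n = 5), with an exact permutation p = 0.135. In the hashtags with at least 10 T cells the means of C1q were 3688 and 1569 CPM, and the ratios were 1.04 and 1.03. With 3 against 3 hashtags, the exact permutation p of 0.100 for C1q is the smallest that can be had.

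**Figure D4:**
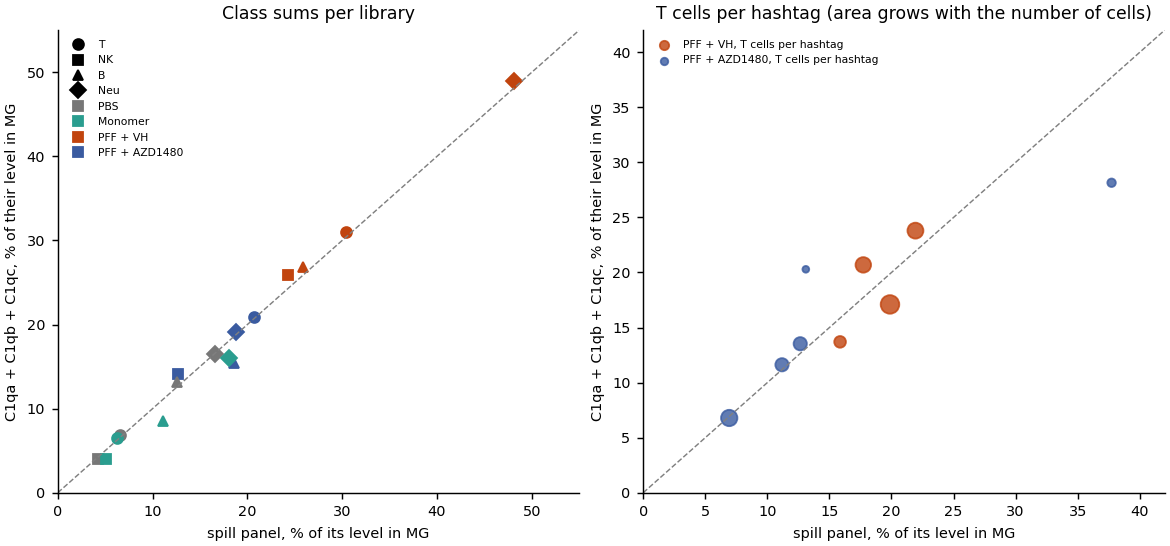
C1q (C1qa, C1qb and C1qc summed) against the microglial panel, each as a percentage of its level in MG, for class sums per library (left, class by shape and library by colour) and for T cells per hashtag (right, larger points hold more T cells); the dashed line marks equal percentages. The class sums lie along the line from about 4% to 49%, and PFF + VH lies furthest along it; Cst3 gives 74.7% to 76.3% of the panel's sum in MG.

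The other complement genes give the setting of these 8. A list of 47 was used, 24 components, 14 regulators and 9 receptors and partners. Between PFF + AZD1480 and PFF + VH in MG, 17 were tested, 0 were higher and 3 were lower, against 26.8% of all genes called, and their median log2 difference was -0.08, against 0.00 over all genes. The lower ones were C1rl (-0.94), which resembles the C1r protease, C5ar2 (-1.47), the other C5a receptor, and C1qbp (-0.47), a protein that binds C1q. In BAM 9 were tested and 0 called by edgeR, against 1.18% of all genes.

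Between BAM and MG, 25 of the 47 were tested, 7 were higher in BAM and 4 lower, against 29.6% of all genes called. The higher ones were C2, which is cut together with C4, Cfp, which stabilises the convertase, the lectin Fcna, Cd55 and Vtn, which restrain the cascade, Vsig4, a macrophage receptor of C3 fragments, and Cd93. No fold is given for these, since they were at most at 1.02 CPM in MG, and Vsig4 had 0 UMIs in MG of PBS and monomer. At such levels they could pass the filter on counts mainly through BAM. Their direction was thus largely set beforehand, and no conclusion is drawn from their number. Masp1, Itgb2, Itgax and Lrp1 were lower. With the disease-associated panel, 15 were tested, 6 were higher (Cfb, Masp1, Itgb2, Itgax, C1qbp, Calr) and 3 lower, among them Cd46 and C5ar2, against 38.9% of all genes called. With the interferon panel, 4 of 15 were higher, led by Cfb, the factor B of the alternative pathway (3.00 ± 0.57, edgeR adjusted p = 2.88e-05), and 2 were lower, against 10.1% of all genes called. With the cycling panel, 15 were tested, 0 were higher and 3 were lower, among them Lrp1 (-0.60) and Calr (-0.32), against 26.2% of all genes called by edgeR, and their median log2 difference was -0.22, against -0.14 over all genes. The call of Calr was lost with RLE scaling, with MULTIseqDemux and in either treatment alone.

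Genes with the pattern most like each complement gene were sought over 24 points of class and library, which share their libraries and depth, among 6787 genes. Among the genes most like C1q were Csf1r (Pearson r = 0.969) and Rnase4 (0.962). C4b was most like Ccn1 (0.965), Cd209f (0.941), which is a BAM marker here, and Ccl8 (0.929). C3 was most like Prdx5 (0.952), Mcemp1 (0.938) and Chil3 (0.930), the last a monocyte marker here. C3ar1 was most like Ctsb (0.966), Atf3 (0.961) and Abca9 (0.959), and C5ar1 like Mctp1 (0.936), Cd33 (0.936) and Cd63 (0.933). Itgam was most like Csnk1e (0.936), Nos1ap (0.914) and Lims1 (0.890). These correlations describe the 24 points and carry no test.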

How the data were processed

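The scRNA-Seq files of the 4 groups hold raw UMI counts as deposited, 1 per gene and barcode, with hashtag counts for both PFF groups. The authors had aligned the reads to mm10 by Cell Ranger, for which the matrix headers name version 7.0.1. The study's limits for a cell, 500 to 15000 counts, 250 to 5000 genes and no more than 10% of counts from mitochondria, were applied and left 14617, 15031, 34436 and 13021 cells in PBS, monomer, PFF + VH and PFF + AZD1480. The summed libraries hold 99658216 to 116440449 UMIs.

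A cell was given a class when it had at least 3 UMIs of at least 2 markers of it and these made up at least 50% of all its marker UMIs. Classes are thus ranges, with 37 to 386 MG and 22 to 58 BAM per library at 50% to 60%. The numbers in these limits and the panel limit were set with the data in hand, and a further gene of the disease-associated panel was not used here. Some genes of the lists are not reported here by name. Members and lists were chosen with earlier results of these data known. Named were the 8 genes, the other complement genes past the threshold or among the 3 highest of a class, the 3 most similar genes and the microglial panel.

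HTODemux (Seurat 5.3.0) assigned a single hashtag to 52.0% of the VH cells and 81.0% of the AZD1480 cells. Cells with several hashtags entered no test, and no doublet caller was run. Same-numbered hashtags did not deviate together (r = -0.03 to 0.06 over 4 pairs), so that the main fits between treatments have no block. Counts were summed per class and hashtag (at least 10 cells) and tested with edgeR 4.0.16 (TMM, filterByExpr, Benjamini-Hochberg, threshold 0.05), and comparisons within hashtags had the hashtag as a block. DESeq2 1.42.0, RLE scaling, no filter, MULTIseqDemux, stricter purity (80%), cells with at least 1000 counts and leaving out hashtags were tried. The scripts were tested on simulated data. A fold change from PBS or monomer has no replicate check.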

Additional observations from a re-analysis of the deposited data

Results flagged for a closer look

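In 36 groups of hashtags, 3 held a value whose gap to its neighbour was large for the range of its group, and chance gives about 1 in 20 groups. C3 in MG of PFF + VH was at 3.698 CPM in hashtag 1, against 4.362 to 4.456 in the other 3. C3 in BAM was at 7.612 CPM in hashtag 2 of PFF + VH and at 3.957 CPM in hashtag 4 of PFF + AZD1480, with 0 UMIs in the other hashtags, and these values are 2 and 1 UMIs.

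The difference between the treatments was tested for 3 comparisons within hashtags and 8 genes, 24 values in all, and 3 passed the threshold over all genes in edgeR. The difference of C5ar1 between BAM and MG was larger in PFF + AZD1480 than in PFF + VH by 0.7802 on the log2 scale (edgeR adjusted p = 0.0326). The rise with the disease-associated panel in MG was larger in PFF + AZD1480 by 0.273 for C1qa (edgeR adjusted p = 0.0272) and by 0.2805 for C1qb (edgeR adjusted p = 0.0307). Each was tested as an interaction.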

How the results depend on the processing

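Calls of the 8 genes that changed are given with each comparison in the report, except those of C3ar1 and Itgam with the interferon panel, which are given there as counts. The number of genes called in BAM between the treatments was 35, and 113 without a filter on low counts, 2 with stricter purity, 23 with at least 1000 counts per cell and 17 to 32 without 1 hashtag. In T cells it was 25, and 48 without a filter, 7 with MULTIseqDemux and 7 to 30 without 1 hashtag. Between BAM and MG it was 3855, and 2028 in PFF + VH alone. For the interferon panel it was 1305, and 325 in PFF + AZD1480 alone and 763 with 1 more panel gene, and RLE scaling gave 904 higher and 330 lower against 677 and 628. For the cycling panel it was 3451, and 1213 in PFF + AZD1480 alone, and RLE scaling gave 1741 higher and 1448 lower against 1474 and 1977. The difference of C1q in T cells, -935.5 CPM, was -1592 with MULTIseqDemux (exact permutation p = 0.0635), -1459 with all lymphocytes pooled (p = 0.0714, exact), -477 with stricter purity, -2119 in hashtags with at least 10 T cells and -1335 to -577 without 1 hashtag (without PFF + AZD1480 hashtag 4 -577, without PFF + VH hashtag 3 -606). None of these exact permutation p-values was under 0.05, which 3 against 3 hashtags cannot reach. The difference of the ratio of C1q to the microglial panel in T cells, 0.0827, turned to -0.157 with MULTIseqDemux, -0.00779 in hashtags with at least 10 T cells, was 0.278 with the panel without Cst3 and ran from -0.0354 to 0.165 without 1 hashtag. The causes were not tested.

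With the hashtag number as a replicate block, which the labels do not state to pair the samples, 3224 genes were called in MG against 3651, 35 in BAM against 35 and 41 in T cells against 25, where C1qc in T cells was called (log2 difference -1.53, edgeR adjusted p = 0.00778).

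Directions turned only in values that were not called. The value of Itgam in MG between the treatments was -0.00175 without a filter, -0.00949 with stricter purity, -0.00458 without the interferon panel and -0.0128 to 0.0198 without 1 hashtag. Itgam in BAM was 0.131 with stricter purity, and C5ar1 in BAM -0.136 to 0.312 without 1 hashtag, the lowest without PFF + AZD1480 hashtag 1. With the disease-associated panel C4b was -0.0120 without a filter and -0.239 with MULTIseqDemux. With the interferon panel C1qa was -0.0202 in PFF + AZD1480 alone and C5ar1 -0.144 with 1 more panel gene, and with the cycling panel C5ar1 was 0.0228 with RLE scaling and 0.0895 in PFF + VH alone. Leaving out Gm42418, AY036118 and Cmss1 changed no call of the 8 genes. Stricter purity left too few T cells for a fit. Of 160 library levels under thinning, stricter purity and the other cell filters, 104 moved by less than their interval and 56 by more. MG without the interferon panel, hashtags with at least 10 T cells, the panel without Cst3, all lymphocytes pooled and the tests of the difference between treatments were chosen after seeing the data. Depth limits C3 and C4b in MG and every gene in lymphocytes.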

Other observations

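Monocytes were few, with 11 to 33 cells per library, and their C1q did not keep to the microglial panel. For PBS, monomer, VH and AZD1480, C1q stood at 16.6%, 15.5%, 14.8% and 3.66% of its MG level, while the panel stood at 7.91%, 9.91%, 15.1% and 16.6%. The ratio of both was 2.095, 1.56, 0.982 and 0.220 in the same order. Single genes of the panel ran from 0.659% to 31.0% of their MG level in monocytes. With 1 library per group, no test was made.

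Itgam in NK cells, which are known to carry CD11b, stood at 15.1% of its MG level for PBS and 11.02% for monomer, where the panel stood at 4.22% and 5.07%. For PFF + VH both were close, at 23.8% and 24.3%, and for PFF + AZD1480, with 11 NK cells and 2 UMIs of Itgam, they were at 3.69% and 12.7%.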
